A study of Mus musculus with 12 samples.

Results

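The nucleic acid sensor genes Ifih1, Ddx58, Dhx58, Zbp1, Eif2ak2, Tlr3 and Mavs, were followed through 12 RNA sequencing libraries of C2C12 cells, an established mouse myoblast line labelled with the C57BL/6 strain. They were chosen by name, with earlier results of these data known, as the rows of the deposited count table that carry these 7 symbols. All 7 were among its 21232 genes and all 7 passed the filter on low counts that kept 12736. The series title concerns the effect of TNF on muscle formation through the Fbxl2 gene. There were 4 groups of 3 libraries, with replicates lettered A, B and C. Proliferating myoblasts were taken at 0 h from growth medium with 10% fetal bovine serum. Control cells had spent 48 h in differentiation medium with 2% horse serum. Below, a change with differentiation means control over proliferation. These groups differ in both time and medium, whose parts cannot be told apart. The TNF group had differentiated for the same 48 h with TNF, an inflammatory cytokine, at 10 ng/ml. In the Fbxl2 siRNA group, also at 48 h of differentiation, the gene of this F-box protein of a ubiquitin ligase had been silenced. All cells were at passages 5 to 10. Whether the letters stand for separate cultures is not labelled, so the spread behind each p-value may be technical. A non-targeting siRNA is not mentioned for any group. The silencing of Fbxl2 and the delivery of a short double-stranded RNA therefore cannot be told apart here.

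These genes encode proteins that detect foreign or misplaced nucleic acid inside cells, and most of them are known to be induced by interferon. Ddx58 encodes RIG-I and Ifih1 encodes MDA5, cytosolic helicases that bind short double-stranded RNA with a triphosphate end and long double-stranded RNA respectively. Dhx58 encodes LGP2, the third RIG-I-like receptor, which lacks the signalling domains and modulates the other two. RIG-I and MDA5 signal through Mavs, an adaptor on the mitochondrial outer membrane, which leads to the kinase Tbk1, the factors Irf3 and Irf7, and type I interferon. Tlr3 senses double-stranded RNA in endosomes and signals through the adaptor Ticam1. Zbp1 binds Z-form nucleic acid and can start necroptosis through the kinase Ripk3. Eif2ak2 encodes PKR, a kinase that is activated by double-stranded RNA and slows translation by phosphorylating eIF2 alpha.

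Promoter sequence is shown as a description, and no link between motifs and RNA levels was tested. Of the 7 members, 5 are in the RefSeq promoter table (GRCm38.p6), which holds 250 bases before and 50 after each gene's start. Zbp1 and Dhx58 are not shown. In all, 3 motifs were searched on both strands: the core of the interferon response element (GAAANNGAA), the STAT element (TTCNNNGAA) and the NF-kB site. The first occurred in 8.56% of 32851 promoters of that length, the second in 8.30% and the third in 4.51%. Each of the 3 was thus absent from most promoters. The 250 bases before the start of Ifih1 (chr2:62646256-62646505, minus strand) held a core match on the opposite strand, first base 112 bases before the start. The 250 bases before the start of Mavs (chr2:131233813-131234062, plus strand) held none of the 3. Both are printed 5′ to 3′ on the gene's strand, with matches in capitals.
Ifih1: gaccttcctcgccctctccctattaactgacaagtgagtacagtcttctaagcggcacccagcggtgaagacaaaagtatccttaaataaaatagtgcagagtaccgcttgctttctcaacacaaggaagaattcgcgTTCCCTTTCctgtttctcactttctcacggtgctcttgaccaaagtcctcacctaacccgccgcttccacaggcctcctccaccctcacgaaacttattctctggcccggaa
Mavs: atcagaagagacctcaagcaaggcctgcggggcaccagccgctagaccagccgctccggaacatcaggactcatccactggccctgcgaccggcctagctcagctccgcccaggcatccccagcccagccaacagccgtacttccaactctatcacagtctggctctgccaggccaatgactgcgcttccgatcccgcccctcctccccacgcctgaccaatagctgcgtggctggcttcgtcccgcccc

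The other matches lay in these windows of 30 bases, again in capitals and on the gene's strand. Ifih1 (chr2:62646206-62646235) held a second core match just past its start, and Ddx58 (chr4:40239803-40239832) held 1 on the opposite strand. In Eif2ak2, 2 overlapping core matches lay past the start (chr17:78882532-78882561) and a STAT element match lay 178 bases before it (chr17:78882731-78882760). Tlr3 (chr8:45410572-45410601) held an NF-kB match 211 bases before its RefSeq start. That window lies inside the gene's span in the GENCODE annotation (45395665 to 45411080, minus strand), whose start is further upstream.
Ifih1, past the start: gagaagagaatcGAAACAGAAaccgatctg
Ddx58, past the start: ctgaggcagtTTCGATTTCctatggccagc
Eif2ak2, past the start: ccgccggGAAAACGAAACAGAAgagaaccg
Eif2ak2, before the start: ctgcagagctTTCCCAGAAtggaagccagg
Tlr3, before the start: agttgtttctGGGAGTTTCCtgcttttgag
A match describes these letters only, and factor binding was not measured.

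Fbxl2, the silenced gene, averaged 32.9 ± 1.305 CPM (counts scaled to library size, SD, n = 3) in control and 22.2 ± 1.52 after siRNA, or 67.5% of control (log2 fold change -0.57, edgeR quasi-likelihood test with Benjamini-Hochberg adjustment, adjusted p = 1.67e-07). Library totals ran from 26416978 to 32917763 counts, and 3 counts corresponded to 0.0911 to 0.114 CPM. The 8 myotube marker genes, which include Myog and Ckm, summed to 48.1 to 63.0 CPM per library in proliferation, 2204 to 2634 in control, 709 to 1111 after Fbxl2 siRNA and 488 to 674 with TNF. The 5 myoblast markers summed to 1969 to 2230 CPM in proliferation, 2729 to 2814 in control, 2340 to 2560 after siRNA and 1551 to 1610 with TNF. Macrophage markers, which belong to cells rich in these sensors, summed to 1.78 to 3.45 CPM for 8 genes, with Adgre1 at 0 in every library. Dendritic cell markers summed to 1.22 to 2.27 CPM for 6 genes, with Itgax and Siglech at 0 throughout. Endothelial markers reached at most 2.70 CPM. Fibroblast markers, 6 genes with Dcn and Col1a1 among them, summed to 657 to 846 CPM in proliferation, 2610 to 2685 in control, 1710 to 1853 after siRNA and 2374 to 2496 with TNF. Within this list Thy1 had 0 counts outside siRNA library C, which held 1. Lum was highest after siRNA, at a mean of 1.86 CPM.

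Of the 7 sensor genes, 6 stood in a single order, lowest in proliferating myoblasts, then control, then Fbxl2 siRNA, and highest with TNF. For these 6 no library of a group overlapped any library of another group, and every step passed the test. How many of all genes keep their groups apart in this way was not counted, so the separation is a description only. The group means of Mavs lay between 26.96 and 28.9 CPM. The rise from proliferation to TNF ran from 3.45-fold for Eif2ak2 to 291-fold for Zbp1. In bulk RNA, a different share of cells and a different amount of RNA per cell cannot be told apart.

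**Figure D1:**
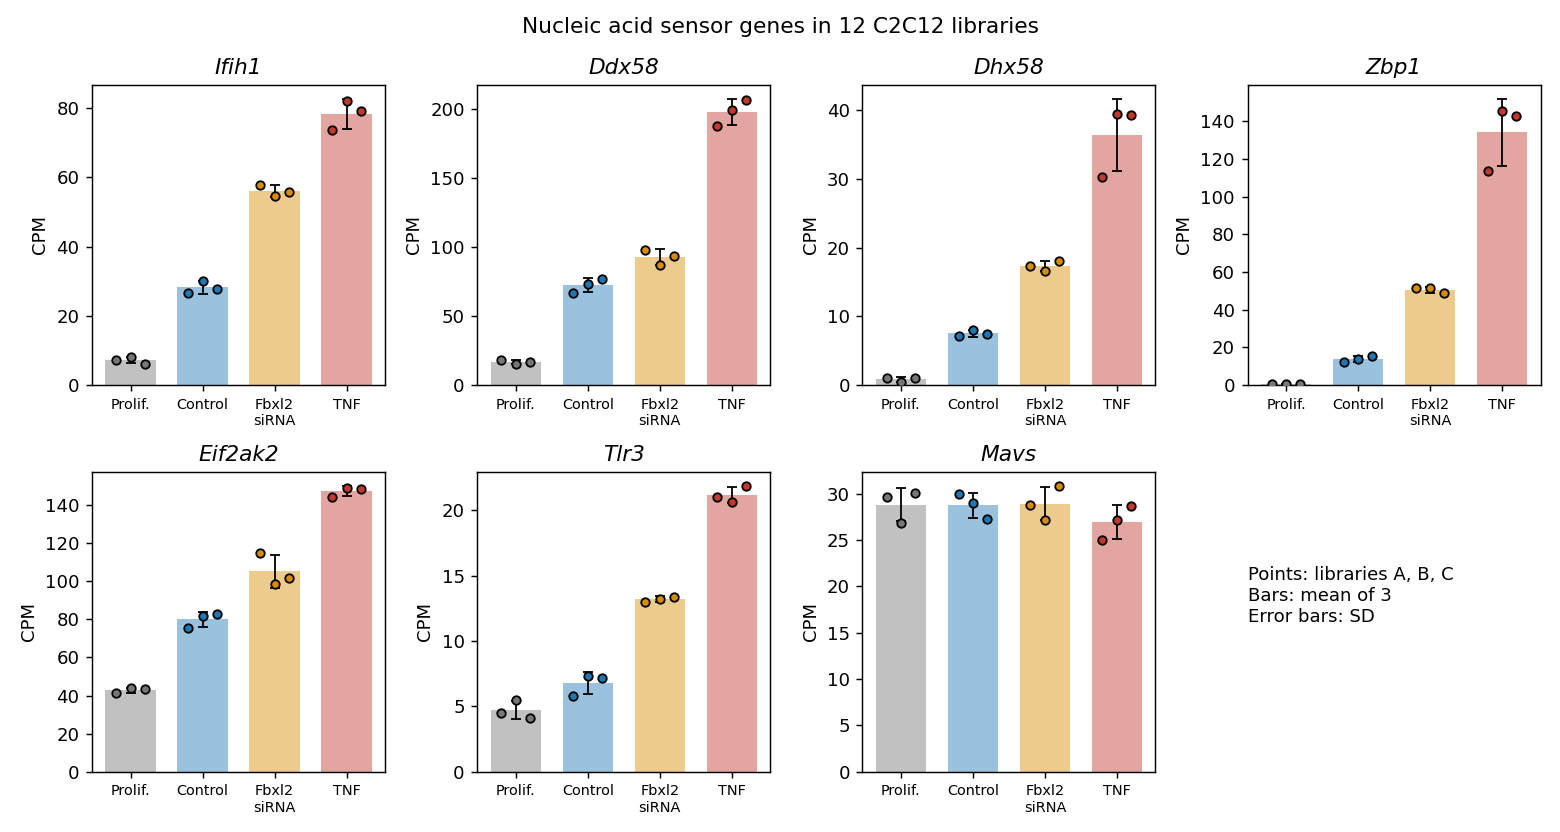
Level of each sensor gene in CPM on a linear axis from 0, by group. Points are the libraries A, B and C, bars the mean of 3 and error bars the SD, and 6 genes climb from proliferation through control and Fbxl2 siRNA to TNF while Mavs lies between 25.1 and 30.8 CPM.

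Among the RIG-I-like receptors, Ddx58 (chromosome 4, 40203773 to 40239828, minus strand) was measured at 17.9, 15.3 and 16.6 CPM in proliferation libraries A, B and C and at 66.8, 73.5 and 77.2 in control. The siRNA libraries held 97.98, 86.8 and 93.3 CPM and the TNF libraries 188, 199 and 206. The lowest siRNA library was thus above the highest control library, and the TNF libraries lay far above both. From proliferation to control the gene rose 4.36-fold (log2 fold change 2.13, SE 0.07, adjusted p = 2.46e-16). TNF raised it a further 2.73-fold over control (1.45, SE 0.06, adjusted p = 2.78e-14). After Fbxl2 siRNA the rise over control was 1.28-fold (0.36, SE 0.06, adjusted p = 3.35e-05), the smallest such rise among the 6 genes.

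Ifih1 (chromosome 2, 62595798 to 62646255, minus strand), the gene of MDA5, had the same order of groups. Proliferation libraries held 7.30, 7.97 and 6.22 CPM and control libraries 26.6, 30.2 and 27.9. With siRNA the values were 57.9, 54.6 and 55.9 CPM, and with TNF 73.7, 82.1 and 79.2. The 3 siRNA libraries sat nearer to the TNF libraries than to the control ones, unlike those of Ddx58. Differentiation raised Ifih1 3.95-fold (log2 fold change 1.98, SE 0.08, adjusted p = 5.63e-15), and TNF raised it 2.78-fold over control (1.47, SE 0.06, adjusted p = 4.69e-14). The siRNA group was 1.99-fold over control (0.99, SE 0.06, adjusted p = 4.02e-11). Its 95% confidence interval, 0.86 to 1.13 on the log2 scale, lay above that of Ddx58, 0.23 to 0.48, though the difference between the 2 genes was not tested.

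Dhx58 (chromosome 11, 100694884 to 100704271, minus strand), the gene of LGP2, had few counts in proliferating cells. Libraries A, B and C held 31, 12 and 31 there, or 1.02, 0.447 and 1.02 CPM, against 7.13, 8.01 and 7.41 CPM in control. After siRNA they held 17.3, 16.6 and 18.04 CPM, and with TNF 30.3, 39.5 and 39.3. Proliferation library B lay below the other two and TNF library A below the other two, yet no groups overlapped. The gene rose 8.86-fold from proliferation to control (log2 fold change 3.15, SE 0.20, adjusted p = 8.01e-11), a size that rests on few counts in proliferation. Over control, TNF raised it 4.84-fold (2.27, SE 0.11, adjusted p = 5.68e-12) and Fbxl2 siRNA 2.31-fold (1.21, SE 0.12, adjusted p = 7.44e-08). An antisense gene, Dhx58os, overlaps 4.31% of the exon bases of Dhx58, and whether the counting used strand is not given in the sources used here.

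Compared per length, as CPM per kilobase of exon, the 3 receptors summed to 3.48 ± 0.236 (SD, n = 3) in proliferation, 16.03 ± 0.966 in control, 25.3 ± 1.13 after siRNA and 48.8 ± 3.33 with TNF. Ddx58 held the largest share of that sum in every library. Its share was 67.5% ± 1.32 in proliferation, 64.1% ± 1.54 in control, 51.9% ± 0.886 after siRNA and 57.6% ± 1.60 with TNF. The 3 siRNA libraries, at 51.1% to 52.9%, were the lowest of all 12. Ifih1 held 25.3% ± 3.96 in proliferation, 21.6% ± 0.920 in control, 27.2% ± 0.540 after siRNA and 19.7% ± 0.570 with TNF, so that its share was larger in each siRNA library than in any control or TNF library. Proliferation library B, at 29.8%, lay above all of these. The share of Dhx58 went from 7.20% ± 2.66 in proliferation to 14.3% ± 0.625 in control, 20.9% ± 0.710 after siRNA and 22.7% ± 1.83 with TNF. These shares depend on the exon length used, the union of all annotated exons. They are a description and were not tested.

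Mavs (chromosome 2, 131234063 to 131248025, plus strand), the adaptor that RIG-I and MDA5 share, had no call in any comparison. Its libraries held 29.6, 26.8 and 30.02 CPM in proliferation and 29.96, 28.98 and 27.3 in control. After siRNA they held 28.8, 27.2 and 30.8 CPM and with TNF 25.1, 27.2 and 28.7. All 4 groups overlapped. For control over proliferation the log2 fold change was -0.005 (95% interval -0.14 to 0.13, adjusted p = 0.949), for TNF over control -0.09 (-0.23 to 0.04, adjusted p = 0.242) and for siRNA over control 0.008 (-0.13 to 0.14, adjusted p = 0.928). In each of these comparisons the interval of Mavs lay below those of Ifih1, Ddx58 and Dhx58.

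**Figure D2:**
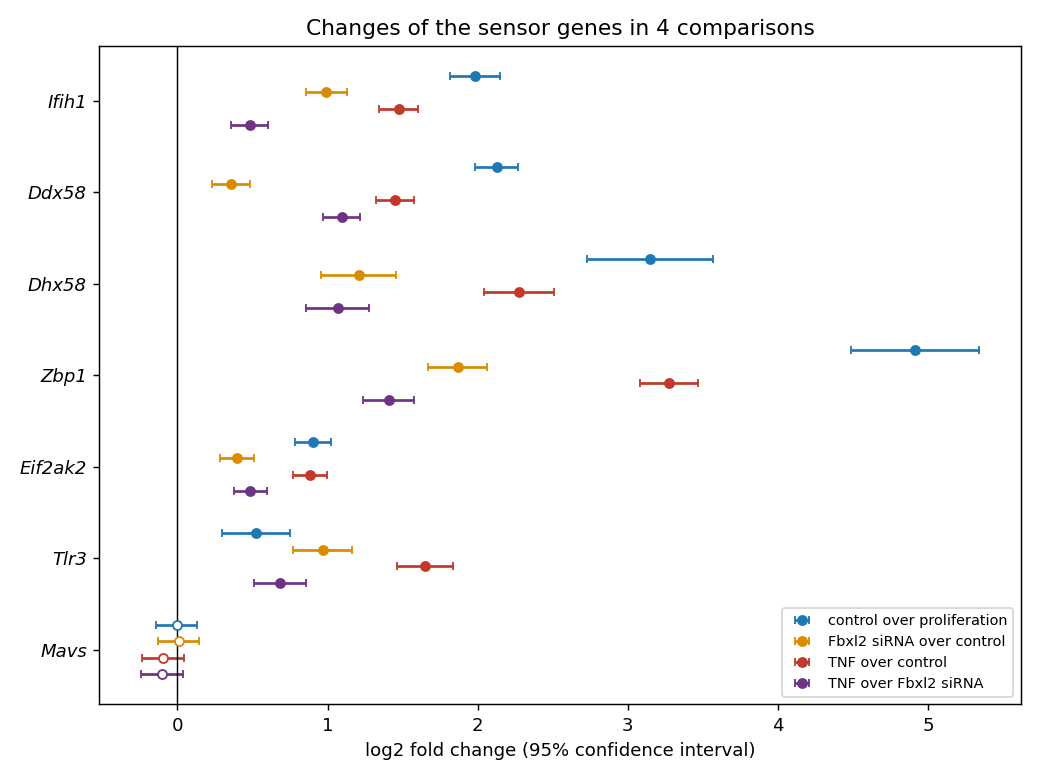
Log2 fold change of each sensor gene in 4 comparisons, with 95% confidence intervals from the edgeR fit. Filled points passed an adjusted p of 0.05 and open points did not; the 4 points of Mavs are the open ones, and the Zbp1 points lie farthest to the right in every comparison.

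Zbp1 (chromosome 2, 173206612 to 173218923, minus strand), the sensor of Z-form nucleic acid, had the largest range. Proliferation libraries held 13, 14 and 13 counts, or 0.428, 0.521 and 0.427 CPM, and control libraries 12.5, 13.7 and 15.5 CPM. After Fbxl2 siRNA the values were 51.6, 51.3 and 48.8 CPM, and with TNF 113.8, 145.5 and 142.8. The gene thus had few counts before differentiation, and with TNF library A was the lowest of its group. It rose 30.1-fold from proliferation to control (log2 fold change 4.91, SE 0.20, adjusted p = 4.11e-13), a fold that rests on 40 counts over the proliferation libraries. TNF raised it 9.66-fold over control (3.27, SE 0.09, adjusted p = 7.24e-15) and siRNA 3.65-fold (1.87, SE 0.09, adjusted p = 2.44e-11). With TNF it stood 2.65-fold above the siRNA group (1.41, SE 0.08, adjusted p = 8.82e-11).

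Eif2ak2 (chromosome 17, 78852564 to 78882573, minus strand), the gene of PKR, had the smallest rise of the 6 from proliferation to TNF. It was measured at 41.3, 43.8 and 43.2 CPM in proliferation and at 75.6, 81.5 and 82.8 in control. After siRNA the libraries held 114.7, 98.8 and 101.9 CPM and with TNF 144.3, 149.1 and 148.5. Library A was the highest of the siRNA group, and the groups stayed apart. The rise was 1.87-fold for differentiation (log2 fold change 0.90, SE 0.06, adjusted p = 7.21e-12), 1.84-fold for TNF over control (0.88, SE 0.05, adjusted p = 1.42e-11) and 1.32-fold for siRNA over control (0.40, SE 0.05, adjusted p = 2.12e-06). Genes on the opposite strand, Gm26637 and n-R5s29, overlap 3.40% and 0.919% of its exon bases.

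Tlr3 (chromosome 8, 45395665 to 45411080, minus strand), the endosomal receptor, had its larger fold changes with TNF and siRNA. Proliferation libraries held 4.51, 5.51 and 4.14 CPM and control libraries 5.81, 7.32 and 7.19, so that proliferation B and control A were near each other. After siRNA they held 12.97, 13.2 and 13.4 CPM, and with TNF 21.02, 20.6 and 21.9. Differentiation raised it 1.44-fold (log2 fold change 0.52, SE 0.11, adjusted p = 0.000207), the smallest of the 6 rises. TNF raised it 3.14-fold over control (1.65, SE 0.09, adjusted p = 2.43e-12), the third largest, and siRNA 1.96-fold (0.97, SE 0.09, adjusted p = 1.91e-08). The antisense gene Gm45542 overlaps 7.32% of the exon bases of Tlr3.

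Counted over the members, 6 of 7 rose and 0 fell from proliferation to control, where edgeR called 38.4% of all genes higher and 38.9% lower. Their median log2 fold change was 1.98, against -0.001 over all genes tested. For TNF over control, 6 were higher and 0 lower, against a background of 31.0% higher and 23.6% lower, with a median of 1.47 against 0.03. For Fbxl2 siRNA over control the counts were again 6 and 0, with 34.1% of all genes higher and 29.8% lower and a median of 0.97 against 0.03. TNF over Fbxl2 siRNA gave 6 and 0 against 29.9% and 30.6%, with a median of 0.68 against -0.008. TNF over proliferation gave 6 and 0 against 36.3% and 36.5%, with a median of 3.46, and Fbxl2 siRNA over proliferation 6 and 0 against 30.9% and 31.1%, with a median of 2.48. The single gene without a call was Mavs each time, with its lowest adjusted p, 0.185, for TNF over proliferation. These comparisons share libraries, so the 6 counts are not independent of each other. The members were also chosen with earlier results of these data known. Their counts and medians beside those of all genes are therefore a description and not a test.

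All 8 myotube markers were higher than in proliferation in control, after Fbxl2 siRNA and with TNF, as were the 6 sensors. With TNF and after Fbxl2 siRNA all 8 fell below control, and 7 of 8 were lower with TNF than after siRNA, while the 6 sensors rose in these comparisons. All 5 myoblast markers also fell with TNF below control, and 3 of 5 fell after siRNA with 1 higher. The part of differentiation state in these values was not tested. The summed fibroblast markers, a sum led by Col1a1, were likewise lowest in proliferation but highest in control. Of the 5 tested ones, 1 was higher and 2 lower with TNF than in control, and 1 higher and 3 lower after siRNA. The part of fibroblast markers was not tested either.

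The step from Fbxl2 siRNA to TNF ran from 1.40-fold to 2.65-fold over the 6 genes. Ddx58 stood 2.13-fold higher with TNF than after siRNA (1.09 on the log2 scale, interval 0.97 to 1.22, adjusted p = 1.51e-12). Dhx58 was 2.10-fold higher (1.07, interval 0.86 to 1.28, adjusted p = 4.54e-08) and Tlr3 1.60-fold (0.68, interval 0.51 to 0.85, adjusted p = 4.91e-07). Eif2ak2 and Ifih1 were both 1.40-fold higher, with intervals of 0.38 to 0.60 and 0.36 to 0.61. Differences between these steps were not tested.

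Against proliferation, TNF libraries held 10.97-fold more Ifih1, 11.9-fold more Ddx58, 42.9-fold more Dhx58, 291-fold more Zbp1, 3.45-fold more Eif2ak2 and 4.50-fold more Tlr3. The siRNA libraries held 7.85-fold more Ifih1, 5.58-fold more Ddx58, 20.4-fold more Dhx58, 110-fold more Zbp1, 2.46-fold more Eif2ak2 and 2.81-fold more Tlr3. For Dhx58 and Zbp1 these folds rest on the few proliferation counts given above.

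To compare levels between genes, CPM per kilobase of exon was used. The length is the union of all annotated exons, and the order of genes depends on it. In proliferation, Mavs (8.62 ± 0.519) and Eif2ak2 (8.36 ± 0.251) were the highest and overlapped, followed by Ddx58 (2.35 ± 0.184). Tlr3 (0.906 ± 0.136) and Ifih1 (0.877 ± 0.108) overlapped below it. Dhx58 (0.253 ± 0.101) and Zbp1 (0.130 ± 0.0153) were the lowest and also overlapped. Per kilobase, Mavs RNA was thus above that of each RIG-I-like receptor gene before differentiation, and protein was not measured.

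In control the order per kilobase became Eif2ak2 (15.6 ± 0.753), Ddx58 (10.3 ± 0.742), Mavs (8.59 ± 0.409), Zbp1 (3.94 ± 0.438), Ifih1 (3.46 ± 0.219), Dhx58 (2.30 ± 0.138) and Tlr3 (1.301 ± 0.160), with only Zbp1 and Ifih1 overlapping. After siRNA, Zbp1 (14.3 ± 0.433) and Ddx58 (13.2 ± 0.798) overlapped, below Eif2ak2 (20.6 ± 1.66). With TNF, Zbp1 (38.0 ± 4.99) was the highest, above Eif2ak2 (28.8 ± 0.512) and Ddx58 (28.0 ± 1.32), which overlapped. Dhx58 (11.1 ± 1.60) and Ifih1 (9.60 ± 0.521) overlapped next, and Mavs (8.06 ± 0.544) had moved from the top of the order to the place above Tlr3 (4.07 ± 0.121). In CPM without the length, Ddx58 (197.7) stood above Eif2ak2 (147.3) and Zbp1 (134.1) with TNF.

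**Figure D3:**
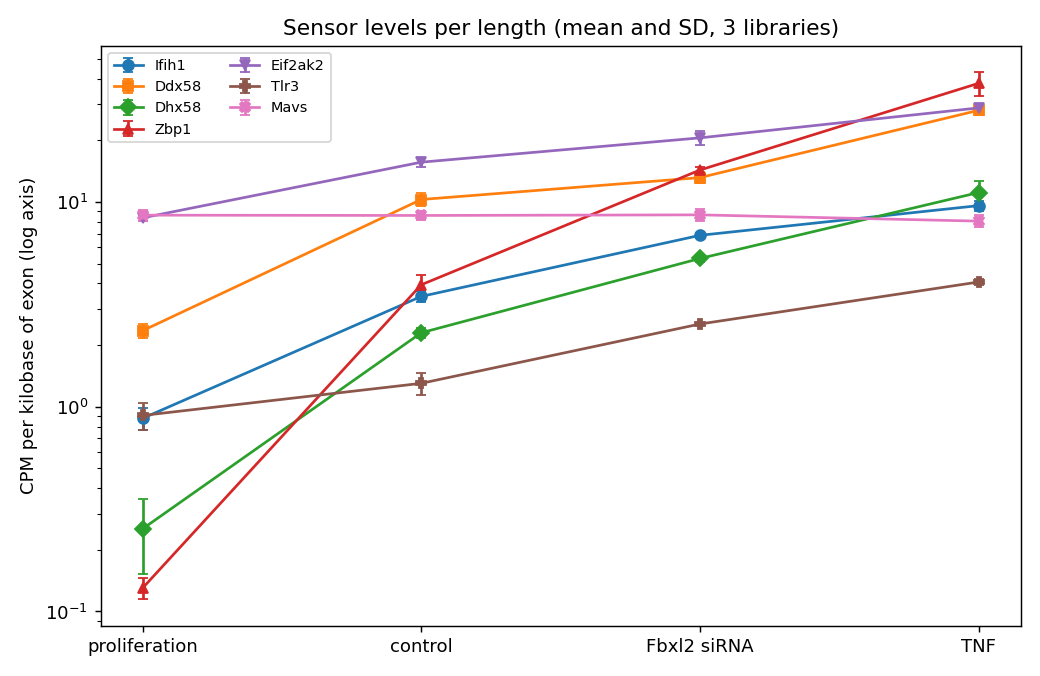
Mean CPM per kilobase of exon on a log axis, with the SD over 3 libraries, for the 7 genes in the 4 groups. Zbp1 goes from the lowest line (0.130) to the highest (38.0), and Mavs is the flat line between 8.06 and 8.65.

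Beyond the receptors, the list of RIG-I-like receptor signalling had medians nearer to 0 than the sensors. For this and the lists that follow, the shares of all genes called higher and lower were 38.4% and 38.9% with differentiation, 31.0% and 23.6% with TNF over control, and 34.1% and 29.8% after siRNA, with all-gene medians of -0.001, 0.03 and 0.03. Of its 21 tested genes, differentiation raised 10 and lowered 6 (median log2 fold change 0.12), and 12 were higher and 1 lower with TNF than in control (median 0.30). After siRNA 8 were higher and 7 lower than in control (median 0.07), so that the counts for differentiation and siRNA were near those shares. The 8 became 5 without control library A or without control library C. The 1 lower with TNF became 0 without control A, control B, TNF A or TNF C. Without all libraries of letter C the counts were 3 lower for differentiation, and 3 higher and 4 lower after siRNA. The kinase gene Tbk1 went from 56.6 ± 4.96 CPM in proliferation to 47.0 ± 1.29 in control (log2 fold change -0.27, adjusted p = 0.000248) and 58.0 ± 0.824 with TNF (0.30 over control, adjusted p = 0.000114).

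Tbk1 acts on the interferon regulatory factors Irf3 and Irf7. Irf3, which is present before any stimulus, stood at 27.6 ± 0.937 CPM in proliferation and 23.9 ± 0.540 in control (log2 fold change -0.21, adjusted p = 0.00427), and TNF over control gave -0.09 (adjusted p = 0.258). Irf7, itself an interferon-induced gene, held 1.08 ± 0.393 CPM in proliferation, 25.3 ± 2.99 in control, 64.5 ± 4.47 after siRNA and 95.2 ± 17.2 with TNF. It rose in each step, by 4.52, 1.35 and 0.56 on the log2 scale (adjusted p = 5.28e-08, 1.72e-05 and 0.00481). Its order of groups was that of the 6 sensors. Trim25, a ubiquitin ligase that activates RIG-I, rose by 0.90 with differentiation, 0.37 with TNF and 0.36 after siRNA (adjusted p = 4.68e-12, 4.15e-06 and 4.99e-06). Rnf125, a ligase that marks RIG-I for degradation, went the other way at differentiation, from 3.19 to 0.569 CPM (-2.48, adjusted p = 1.67e-10), and rose to 2.77 CPM after siRNA (2.28 over control, adjusted p = 2.66e-09). The scaffold gene Tank and the ligase gene Traf3 rose with TNF by 0.78 and 0.77 (adjusted p = 8.91e-12 and 4.28e-11).

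Type I interferon RNA itself was near the limit of detection. Ifnb1 had 1 count in control library B, 1 in siRNA library C and 0 in the other 10, which allows up to 3 counts, or 0.114 CPM, in a library with none. Of 15 tested genes of interferon production and response, differentiation raised 11 and lowered 2 (median 0.33), 14 higher and 0 lower with TNF than in control (median 0.91), and 9 higher and 2 lower after siRNA (median 0.22), against the shares of all genes given above. Irf9, a factor of interferon signalling, rose 5.91-fold with differentiation, from 7.39 to 43.8 CPM (adjusted p = 1.82e-16), and Stat2 2.21-fold (adjusted p = 8.10e-10). After siRNA, Irf9 and Stat2 rose by 0.69 and 0.70 on the log2 scale (adjusted p = 1.14e-08 and 3.80e-07). With TNF, Irf1 rose 2.72-fold to 190.2 CPM (adjusted p = 1.89e-16), and Ifngr2, a chain of the interferon gamma receptor, 2.39-fold (adjusted p = 1.01e-15).

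Ticam1, the adaptor of Tlr3, averaged 21.7 ± 1.64 CPM in proliferation, 20.04 ± 0.816 in control, 23.7 ± 0.809 after siRNA and 18.2 ± 0.634 with TNF. It was higher after siRNA than in control (log2 fold change 0.24, adjusted p = 0.00256), while TNF over control gave -0.14 (adjusted p = 0.0807). Of 10 tested genes of endosomal Toll-like receptors and their adaptors, 3 were higher and 3 lower with differentiation, 5 higher and 0 lower with TNF, and 4 higher and 1 lower after siRNA. The counts for differentiation, and that of higher genes after siRNA, were near the shares of all genes. The 1 of 10 lower after siRNA was below the 29.8% of all genes. These small counts moved with single libraries: 3 higher with TNF without control A, control C or TNF A, 2 lower without proliferation B and 1 lower without TNF B. After siRNA 2 were higher without control B, control C or siRNA B, and 2 were lower without proliferation B or siRNA C. Myd88, the adaptor of most other Toll-like receptors, rose by 0.46 with TNF (adjusted p = 1.71e-06), and Unc93b1, which carries these receptors to endosomes, rose by 0.66 with differentiation (adjusted p = 4.77e-07) but was at -0.18 with TNF (adjusted p = 0.0662).

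Of 7 tested partners of Zbp1 in cell death, differentiation raised 3 and lowered 4 (median -0.38), 7 higher and 0 lower with TNF than in control (median 0.60), and 6 higher and 0 lower after siRNA (median 0.33). Over all genes 31.0% were higher with TNF and 34.1% after siRNA, and the split with differentiation was near that of all genes. Ripk3, the kinase that Zbp1 engages, fell from 11.3 ± 0.901 CPM in proliferation to 3.47 ± 0.286 in control (log2 fold change -1.71, adjusted p = 2.15e-12). It was at 7.18 ± 0.561 CPM after siRNA (1.05 over control, adjusted p = 3.15e-08) and 6.01 ± 0.247 with TNF (0.79, adjusted p = 2.58e-06). Mlkl, the executor of necroptosis, fell by 0.73 with differentiation (adjusted p = 2.54e-10) and rose by 1.13 with TNF and 0.88 after siRNA (adjusted p = 6.58e-13 and 4.61e-11). Casp8, which restrains this pathway, rose by 0.60 with TNF (adjusted p = 7.99e-09).

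Around Eif2ak2, 1 of 12 tested genes of the eIF2 alpha kinase circuit was higher and 7 lower with differentiation (median -0.41), while Eif2ak2 itself rose. With TNF 8 were higher and 0 lower (median 0.27), and after siRNA 6 higher and 1 lower (median 0.21), where all genes had 38.9% lower with differentiation, 31.0% higher with TNF and 34.1% higher after siRNA. The 1 higher with differentiation became 2 without proliferation B, the 0 lower with TNF became 1 without proliferation A, and the 1 lower after siRNA became 0 without siRNA B. Without all libraries of letter C, 5 were higher with TNF. Atf4, whose translation rises when eIF2 alpha is phosphorylated, fell from 518.1 to 211.2 CPM with differentiation (log2 fold change -1.29, adjusted p = 2.35e-13) and rose by 0.48 with TNF (adjusted p = 2.08e-06) and 0.44 after siRNA (adjusted p = 4.49e-06). Ppp1r15b, a phosphatase subunit that reverses the mark, fell by 0.86 with differentiation (adjusted p = 1.17e-13), and Eif2ak4, another kinase of the family, fell by 0.30 (adjusted p = 2.93e-05). Over control, Ppp1r15b was higher by 0.44 with TNF (adjusted p = 1.58e-08) and by 0.59 after siRNA (adjusted p = 1.86e-10). Eif2ak4 was higher by 0.48 with TNF (adjusted p = 9.41e-08) and had no call after siRNA (0.11).

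Enzymes that edit or degrade double-stranded RNA were measured as well. Of 12 tested, 4 were higher and 5 lower with differentiation, 7 higher and 1 lower with TNF, and 6 higher and 4 lower after siRNA, of which the split with differentiation was near that of all genes. The 1 lower with TNF became 2 without TNF A, and the 4 lower after siRNA became 2 without all libraries of letter C. Adar, which edits adenosine in double-stranded RNA and so hides it from MDA5 and PKR, averaged 40.9 ± 5.31 CPM in proliferation, 72.4 ± 2.55 in control, 90.9 ± 7.02 after siRNA and 125.4 ± 10.4 with TNF. It rose 1.77-fold with differentiation (adjusted p = 2.80e-07), 1.73-fold with TNF over control (adjusted p = 5.69e-07) and 1.25-fold with siRNA (adjusted p = 0.00265). Pnpt1, a mitochondrial RNA-degrading enzyme, fell by 0.77 with differentiation (adjusted p = 4.57e-10) and rose by 0.77 after siRNA (adjusted p = 1.25e-09).

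**Figure D4:**
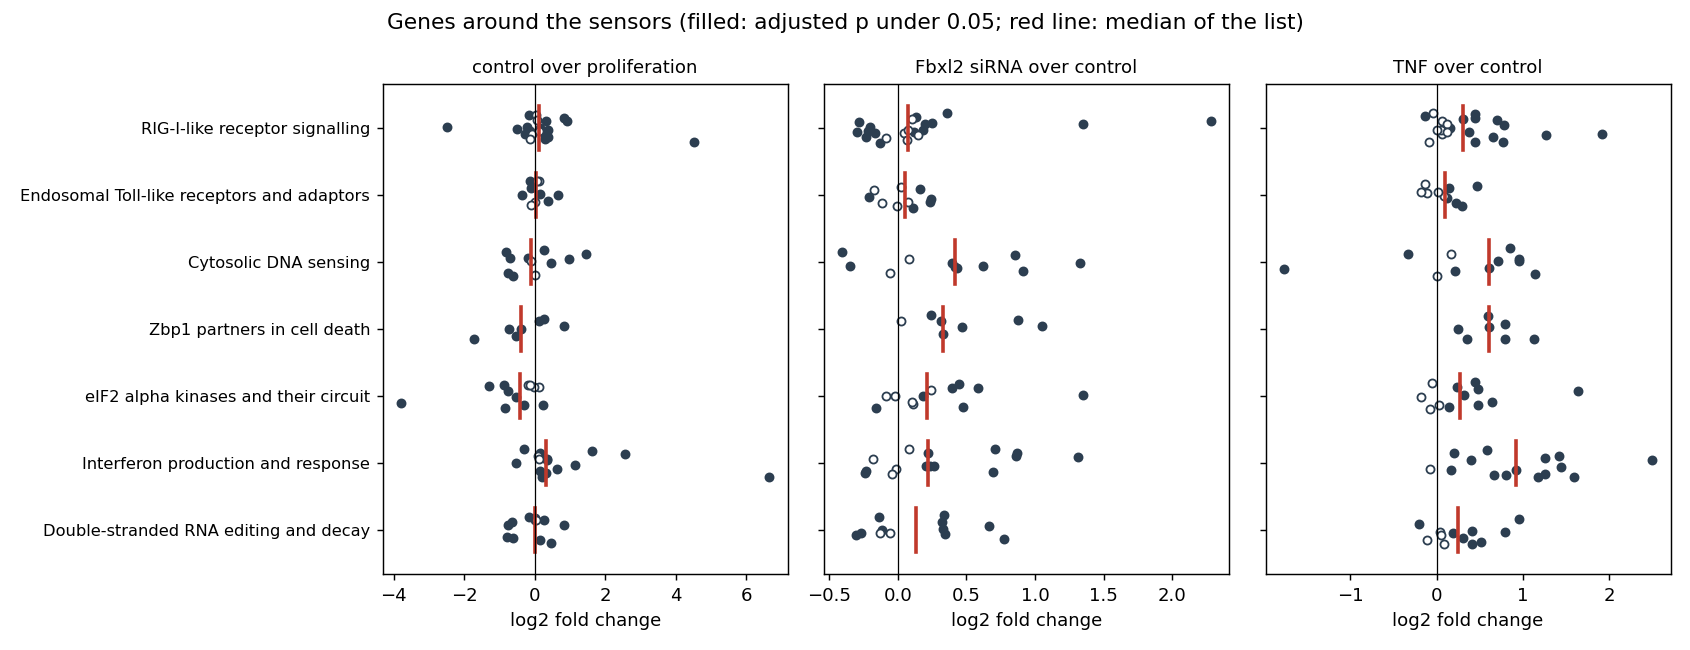
Log2 fold change of each tested gene in 7 pathway lists around the sensors, the sensors left out, in 3 comparisons, each panel with its own axis. Filled points passed an adjusted p of 0.05, open points did not, and the red line is the list's median, which for interferon production and response is 0.33 with differentiation and 0.91 with TNF.

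Sensing of cytosolic DNA runs through cGAS and STING. Of 11 tested genes of DNA sensing, differentiation raised 4 and lowered 5 (median -0.12), 7 higher and 2 lower with TNF (median 0.60) and 7 higher and 2 lower after siRNA (median 0.42). The split with differentiation was near the 38.4% higher and 38.9% lower of all genes. Mb21d1, the gene of cGAS, fell from 8.71 ± 1.07 to 5.69 ± 0.923 CPM with differentiation (log2 fold change -0.61, adjusted p = 4.76e-05), where the 6 RNA and Z-form sensors rose. It was then higher with TNF (0.71 over control, adjusted p = 1.46e-05) and after siRNA (0.39, adjusted p = 0.00542). Tmem173, the gene of STING, held 28.9 ± 1.46 CPM in proliferation and 29.0 ± 1.76 in control. It stood at 54.6 ± 0.852 after siRNA and 56.2 ± 4.94 with TNF, rises of 1.89-fold and 1.94-fold over control (adjusted p = 1.35e-10 and 6.50e-11). TNF over siRNA gave 0.04 for Tmem173 (interval -0.09 to 0.17, adjusted p = 0.584), where each of the 6 sensors was higher with TNF. Not all genes of the list differed from the sensors. Ifi203 averaged 48.2 ± 1.79 CPM in proliferation, 94.6 ± 4.44 in control, 170.9 ± 4.18 after siRNA and 208.2 ± 7.24 with TNF, the group order of the 6 sensors.

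For each member the 3 tested genes with the most similar profile were found, by the root mean square (RMS) difference of log2 CPM centred on each gene's mean over the 12 libraries. Ddx58 was nearest to Parp9 (RMS 0.17), Dtx3l (0.17) and H2-K1 (0.19), and Ifih1 to Parp9 (0.20), Tnfrsf14 (0.26) and Irf9 (0.26). Parp9 went from 11.1 CPM in proliferation to 54.7 in control, 82.4 after siRNA and 152.8 with TNF. Dhx58 was nearest to Rtp4 (0.31), Lgals3bp (0.32) and AI607873 (0.33). Zbp1 was nearest to Psmb8 (0.34), an immunoproteasome subunit gene, Phf11d (0.38) and Ifit3 (0.41), and its distances were the longest of the 7 members, which also differ in range. Eif2ak2 was nearest to Endod1 (0.11), Ly6e (0.12) and H2-M3 (0.12), and Tlr3 to H2-T22 (0.16), Acpp (0.17) and Il15 (0.17). Mavs, which varied least, was nearest to Dmwd (0.050), Eef2 (0.053) and Flii (0.055). Between members the closest were Ifih1 and Ddx58 (0.28) and Eif2ak2 and Tlr3 (0.30). These distances are a description over libraries that fall into 4 groups.

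**Figure D5:**
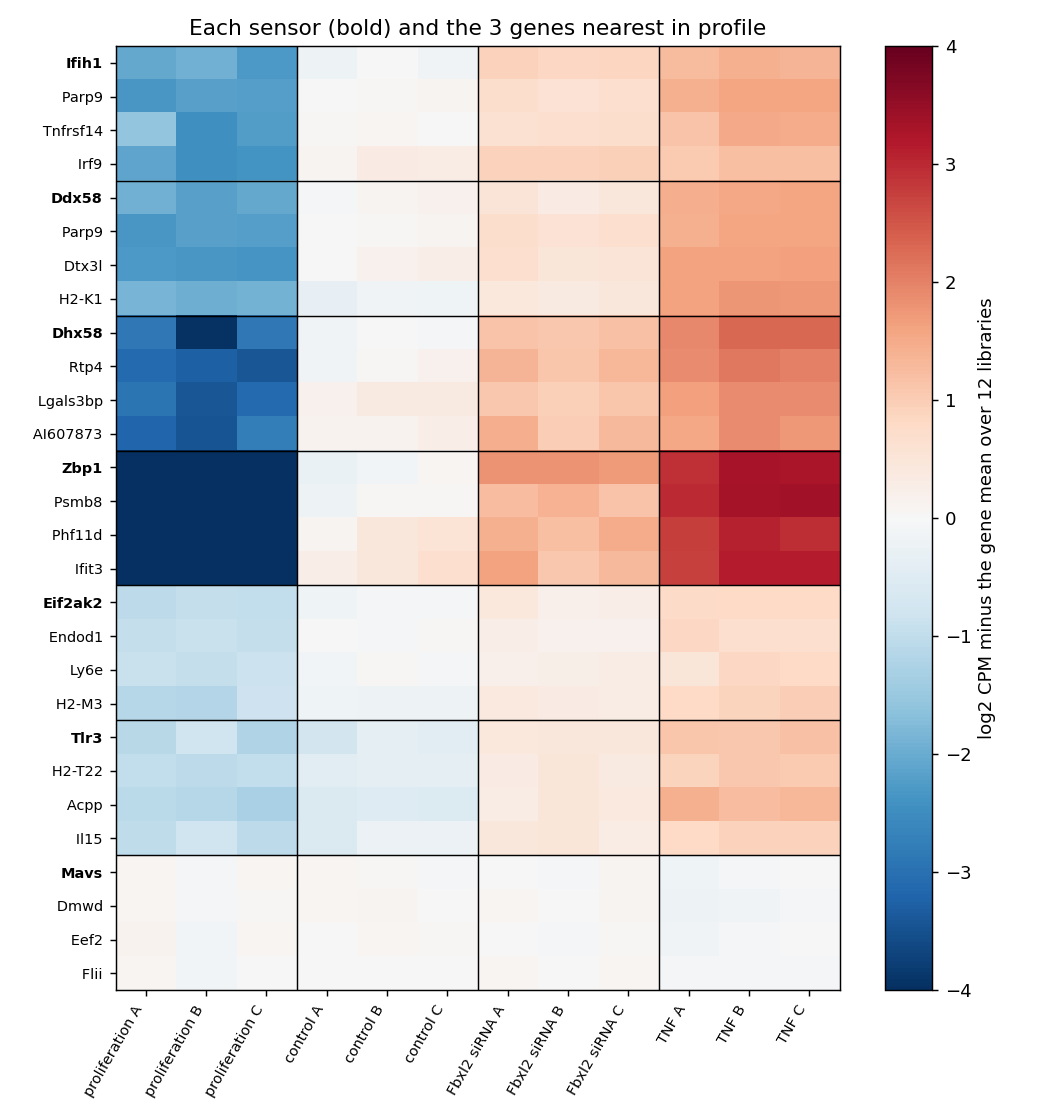
Log2 CPM minus the gene's mean over the 12 libraries, for each sensor (bold) and its 3 nearest genes, with colours ending at -4 and 4. Outside the Mavs block, rows share the order of colour from proliferation to TNF. The Mavs block is pale throughout.

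The authors' deposited tables of comparisons gave the same directions for the 6 genes. The authors' deposited table for TNF over control listed log2 fold changes of 1.45 for Ifih1, 1.42 for Ddx58, 2.25 for Dhx58, 3.24 for Zbp1, 0.85 for Eif2ak2, 1.62 for Tlr3 and -0.12 for Mavs (adjusted p = 0.186 for Mavs, from DESeq2 per the file headers). Their deposited table for Fbxl2 siRNA over control, the authors' own fit, listed 0.97, 0.33, 1.18, 1.84, 0.37, 0.94 and -0.01 in the same order of genes.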

How the data were processed

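RNA sequencing of 12 C2C12 libraries was analysed from the authors' deposited table of whole-number read counts per gene symbol. The submitters' processing notes list the mm10 build, CASAVA and DESeq2, while aligner, counting tool, strand setting and annotation are not given in the sources here. The authors also deposited log2 fold changes and p-values, from DESeq2 per the file headers, which were used only for direction. Their table named for proliferation held TNF over proliferation (median absolute difference 0.000329, against 0.214 for control over proliferation).

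Counts were analysed in R 4.3.3 with edgeR 4.0.16: filterByExpr, TMM, 4 group means over all 12 libraries, robust quasi-likelihood fit, Benjamini-Hochberg adjustment over 12736 genes, called under 0.05. The SE is the size of the log2 fold change over the root of F. CPM uses TMM-scaled totals, and log2 CPM a prior count of 2. Exon lengths and positions came from GENCODE M21 (GRCm38), sequences from RefSeq (GRCm38.p6). The test was checked on simulated data. Replicates correlated at 0.9937 to 0.9958 and none were identical. Intervals of fold changes include the spread between libraries, and floors cover counting error only.

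The 7 members, 7 pathway lists and 6 marker lists (141 genes, 4 absent from the table and 27 below the filter) were chosen with earlier results of these data known. Named were all members, Fbxl2, Ifnb1, Irf3, Irf7, Tbk1, Ticam1, Adar, Mb21d1 and Tmem173, the 2 genes of smallest p per list and comparison, and each member's 3 nearest genes, and 1 further gene that is not reported here. Alternatives were RLE factors, no filter, DESeq2 1.42.0, limma 3.58.1 voom, only the 6 libraries compared, a replicate block, and leaving out each library or letter.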

Additional observations from a re-analysis of the deposited data

How the results depend on the processing

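Each comparison was refitted in 21 alternatives. The 6 members called higher and 0 lower stayed 6 and 0 in all 6 comparisons under every alternative, also with the replicate letter as a block (6 called higher with the replicate block) and with DESeq2. The weakest call was Tlr3 for control over proliferation, with a highest adjusted p of 0.0223. Mavs was not called in any of them, with a lowest adjusted p of 0.0514 for TNF over proliferation. Whether letters pair libraries was not settled. Same-letter deviations correlated at -0.096 to 0.183, over 0.1 in 3 of 18 pairs, and different-letter ones at -0.156 to 0.131. Further, 0 libraries correlated best with their own letter in every other group, a criterion too strict to decide the question. Counts over all genes stayed within 1.5 times. Of the refitted counts over lists, 3100 stayed within that range and 176 did not, those of the endosomal receptor list among them. Depth limits Zbp1 and Dhx58 in proliferation and leaves Ifnb1 at the floor.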
